A study of Cannabis sativa with 12 samples.

Results

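A set of 42 contigs annotated as receptor-like kinases or leucine-rich repeat (LRR) proteins was followed through the development of the hemp hypocotyl. They were found by a search of the description that the table gives for each contig, for the words leucine-rich repeat (with or without the hyphen), receptor-like kinase, receptor-like protein kinase, receptor kinase or lectin protein kinase. Of 3622 contigs in the table, 43 held such words, and 1 of these, the cambium receptor PXY, was left out. The related kinase PXC1 was to be left out as well. Its contig is in the table, but its description holds none of the words, so that it was not among the 43. The word kinase stood in the description of 36 of the 42. The other 6 were the wall protein LRX2 and 5 LRR proteins with no kinase named, which the search also collects. The search used no measured value of its own, but it ran on a table that the authors had selected by differences between time points.

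Receptor-like kinases typically span the plasma membrane once. A domain outside the cell binds a ligand or the wall, and a kinase domain inside passes the signal on. Whether each contig of the set encodes these domains was not tested. LRR domains commonly bind peptides or brassinosteroids, the malectin-like domains of FERONIA and its relatives bind RALF peptides and wall pectin, and lectin and cysteine-rich domains are found on many kinases of defense and stress responses. In stems, receptors of the LRR class and their peptide ligands set the activity of the cambium, the meristem from which secondary xylem and phloem arise.

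The hypocotyls were those of Cannabis sativa cv. Santhica 27, a fiber hemp, and no genotype or treatment differed between groups. Plants were kept in incubators with a 16 h day at 25°C and an 8 h night at 20°C. They were sampled at 4 ages counted from sowing, on day 6 (H6), day 9 (H9), day 15 (H15) and day 20 (H20). Each group had 3 libraries, each a pool of 20 whole hypocotyls from a single experimental batch, so that the p-values measure the spread between such pools. Days 6 to 20 take the organ from elongation to secondary growth, with bast fibers and secondary xylem forming late. In RNA from whole hypocotyls, fewer cells of a type and less RNA per cell cannot be told apart.

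The contigs were assembled de novo and named after their closest Arabidopsis protein, so that a name such as HERK1 means the best match of a hemp contig. Every share given here is a share of this selected table. RPKM are reads scaled to the length of the contig and to the mapped reads of the library. Calls of a rise or a fall needed an adjusted p under 0.05 in the edgeR test across all 3622 contigs together with a log2 change of more than 1. Errors of log2 fold changes are standard errors. Mapped reads per library ranged from 13413484 to 25855403, of which 31.1 to 36.8% lay in the table, and the 42 contigs had between 11 and 13538 reads in a library, with a median of 712.5. Both the mean level and the length of the contigs varied widely. The highest mean of a contig over the 4 time points had a median of 27.8 RPKM in the set (12.3 to 224) and 43.4 RPKM in the table. Contig length ranged from 380 to 4021 bases with a median of 2209, against 1281.5 bases in the table. Of 29 contigs of the set with Gene Ontology terms, 26 (89.7%) carried plasma membrane, against 407 of 2284 (17.8%) in the table. The terms, like the searched descriptions, annotate the matched proteins, so that the search by name itself favors this term.

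Transcripts of marker genes for several tissues differed between the same days. The summed RPKM of the cellulose synthases of secondary walls, CESA4 and CESA7 (2 of 3 listed genes found), ranged from 85.2 to 168 in the H6 libraries, 383 to 605 at H9, 1823 to 2020.2 at H15 and 1739 to 1874 at H20. Contigs of the sieve element protein SEOR1 (6 contigs, 1 of 4 listed phloem genes) summed to 158 to 365, 272 to 562, 388 to 419 and 667 to 758 RPKM. The cambium regulator WOX4 (1 of 4 listed genes) ranged from 34.7 to 43.4, 61.3 to 64.0, 64.8 to 86.4 and 75.5 to 86.3 RPKM. Light-harvesting contigs of green tissue (3 contigs, 2 of 4 listed genes) summed to 6603 to 10354, 6453 to 7879, 3436 to 4357 and 3586 to 3762 RPKM. This sum was carried by LHCB1.3 contig 126, with a mean of 8410.3 RPKM in H6, whereas LHCB1.3 contig 493 and the LHCB4.3 contig fell already from H6 to H9 (log2 changes of -1.28 ± 0.19, edgeR adjusted p = 4.7e-05 and -1.73 ± 0.14, edgeR adjusted p = 4e-07). From H15 to H20 the log2 changes of these smaller contigs were 0.603 ± 0.18 (edgeR adjusted p = 0.019) and 0.97 ± 0.14 (edgeR adjusted p = 0.00019), both under the fold limit. Genes of dying vessel elements (MC9, BFN1 and RNS3, 3 of 5 listed) summed to 67.1 to 72.3, 49.8 to 78.1, 18.2 to 50.1 and 33.3 to 41.6 RPKM. Their courses differed. From H6 to H9 RNS3 rose (1.56 ± 0.51, edgeR adjusted p = 0.015), BFN1 fell (-1.37 ± 0.22, edgeR adjusted p = 0.00011) and MC9 was not called. RNS3 (-1.53 ± 0.51, edgeR adjusted p = 0.014) and MC9 (-1.11 ± 0.33, edgeR adjusted p = 0.0074) fell from H9 to H15. Only BFN1 was called from H6 to H20 (-1.28 ± 0.22, edgeR adjusted p = 0.0001). Of 2 listed root hair genes, 0 were in the table. The part of these tissues in the differences given next was not tested.

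Between H6 and H20, 22 of the 42 contigs rose and 13 fell, while 34.2% of all contigs in the table were called higher and 37.4% lower. The median log2 fold change was 1.05 in the set and -0.58 over all contigs. Of the 7 contigs that were not called, 6 passed the adjusted p of 0.05 but not the fold limit, as did 794 of 1028 in the table. With the called contigs included, 93.5% of the table passed that p in either direction, and 1 of the 42 did not. Libraries of H6 and H20 did not overlap for 40 of the 42, near the 93.4% of the table. Among the 70 other protein kinases of the table, 28 were higher and 24 lower, with a median of -0.07. The difference of the set from the table was not tested. With DESeq2 size factors 23 contigs of the set were higher and 11 lower, and over all contigs 1402 were higher and 1007 lower, against 1238 and 1356 in the edgeR fit. Other settings narrowed the split. Without the TMM scaling factors of the edgeR fit, 19 contigs of the set were higher and 15 lower, with 1164 and 1503 over all contigs. With limma on log2(RPKM + 1) the counts were 18 and 13 in the set and 1116 and 1440 over all contigs.

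The step with the most calls was that from H9 to H15, in which 15 contigs rose and 10 fell, beside 22.7% and 20.8% of all contigs, and the medians were 0.59 in the set and -0.12 in the table. From H6 to H9, 7 rose and 2 fell (17.9% and 18.2% of all contigs), and with DESeq2 size factors these counts were 10 and 1, with 909 and 458 in the table against 647 and 658 in the edgeR fit. The last step was the quietest, since from H15 to H20 only 1 contig rose and 5 fell, beside 5.25% and 8.31% of all contigs. Without the fold limit, 15, 13 and 12 further contigs passed the adjusted p in the steps from H6 to H9, H9 to H15 and H15 to H20. The like counts in the table were 1402, 1309 and 1007 of 3622. With the called contigs included, 74.7%, 79.6% and 41.4% of the table passed it, while 18, 4 and 24 of the 42 did not. Libraries did not overlap for 25, 40 and 28 of the 42 in these steps in turn, beside 74.6%, 83.1% and 57.5% of the table. Comparisons that follow each other share the libraries of the time point between them, and the comparison of H20 with H6 shares both of its groups with the steps. All 42 contigs passed the edgeR test of the 4 time points jointly, as did 100% of the table.

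**Figure D1:**
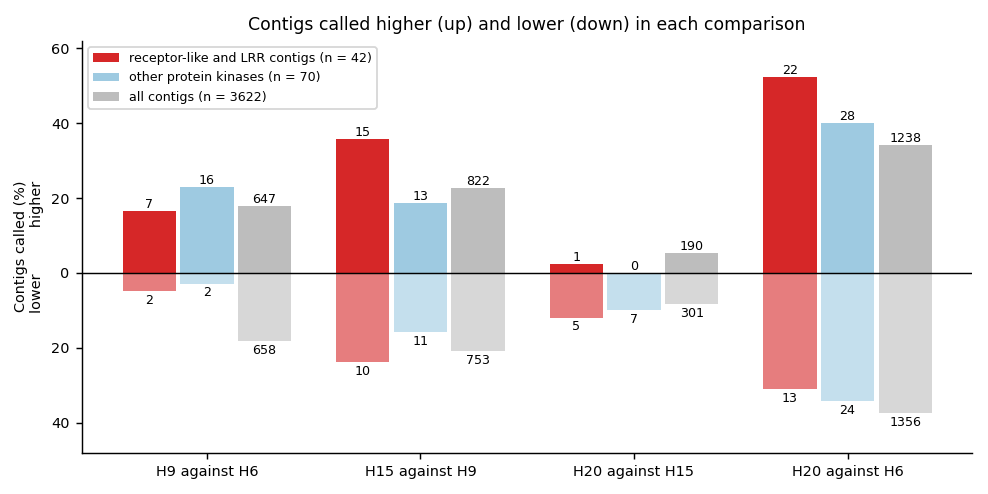
Share of contigs called higher (bars upward) and lower (bars downward, paler) in each comparison, in percent, for the 42 receptor-like and LRR contigs, the 70 other protein kinases and all 3622 contigs. Numbers at the bars are contigs. The set had 22 higher and 13 lower from H6 to H20, and 15 higher and 10 lower from H9 to H15.

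The contigs did not follow a common course. The highest mean lay in H6 for 9 contigs (21.4%), H9 for 10 (23.8%), H15 for 14 (33.3%) and H20 for 9 (21.4%). Over the whole table these shares were 40.6% for H6, 19.6% for H9, 19.8% for H15 and 20.0% for H20. No single step was called for 12 contigs, or 28.6% of the set and 30.7% of the table. A rise from H9 to H15 alone was called for 10 contigs (23.8%, against 13.5% of the table), and a fall in that step alone for 6 (14.3%, against 12.2% of the table). The contigs that match AT1G56145 (contig 17633), AT5G18500 and an unnamed putative receptor kinase (contig 17886) rose in both of the first steps, whereas HSL1 and FERONIA (contig 5297) fell in both. A rise in both of these steps and no call in the last was found for 7.14% of the set and 5.99% of the table, and a fall in both for 4.76% and 2.43%.

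**Figure D2:**
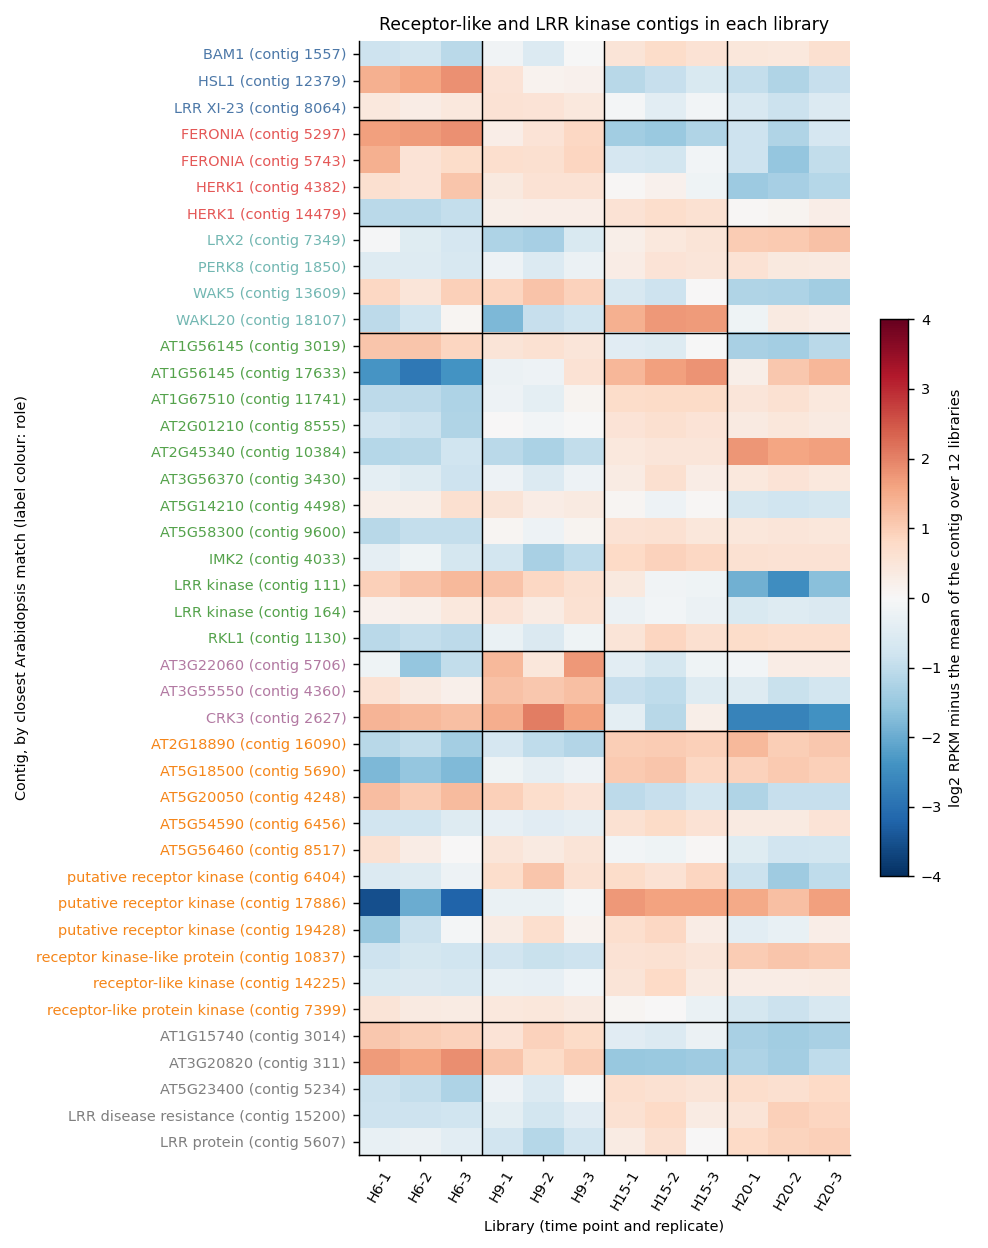
Level of the 42 contigs (rows, grouped by role and colored by it) in the 12 libraries (columns), as log2 RPKM minus the mean of the contig over the libraries. Red is above and blue below that mean. The 12 LRR kinases and 11 other receptor-like kinases hold both courses, whereas the 3 contigs grouped as cysteine-rich and lectin proteins are highest in H9.

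Receptors of the LRR XI class, which perceive small peptides, were represented by BAM1, HSL1 and LRR XI-23. BAM1 is a relative of CLAVATA1 that binds CLE peptides in Arabidopsis meristems. The BAM1 contig had 39.2, 41.6 and 33.1 RPKM in H6, 62.6, 47.5 and 68.9 in H9, 99.5, 116 and 105 in H15, and 94.3, 93.4 and 109 in H20. It was more abundant in the 3 libraries of H20 than in any of H6, and its H15 and H20 libraries overlapped. BAM1 rose by a log2 fold change of 1.48 ± 0.15, edgeR adjusted p = 8.5e-07, with 0.64 ± 0.15 (edgeR adjusted p = 0.0018) from H6 to H9 and 0.97 ± 0.15 (edgeR adjusted p = 6.2e-05) from H9 to H15, neither step past the limit of 1.

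HSL1, a kinase related to the abscission receptor HAESA, took the opposite course. Its contig had 11.2, 12.5 and 14.7 RPKM in H6, 6.14, 4.65 and 4.71 in H9, 1.95, 2.2 and 2.74 in H15, and 2.16, 1.8 and 2.22 in H20. No library of H9 reached the lowest of H6, and no library of H15 the lowest of H9. HSL1 fell from H6 to H20 (-2.54 ± 0.18, edgeR adjusted p = 3.7e-08) and from H6 to H9 (-1.33 ± 0.17, edgeR adjusted p = 2.1e-05). The fall from H9 to H15 (-1.03 ± 0.18, edgeR adjusted p = 0.00017) was close to the limit and was -0.90 without replicate 1 of H9 and -0.92 without replicate 1 of H15. For LRR XI-23 the value of H20 against H6 (-0.96 ± 0.12, edgeR adjusted p = 4.3e-06) was just short of a call.

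FERONIA and HERKULES1 (HERK1) belong to the malectin-like receptor kinases, which in Arabidopsis are needed for cell expansion and for sensing the state of the wall. A pair of contigs matched each of them. From H6 to H20, 3 of these 4 fell and 1 rose, beside 37.4% lower and 34.2% higher over all contigs. FERONIA contig 5297 had 19.6, 20.3 and 22.3 RPKM in H6, 7.53, 9.12 and 11.03 in H9, 2.38, 2.22 and 2.7 in H15, and 3.49, 2.72 and 3.88 in H20. The time points up to H15 were separated step by step, with the lowest values in H15. This contig fell from H6 to H9 (-1.18 ± 0.17, edgeR adjusted p = 4.7e-05), from H9 to H15 (-1.79 ± 0.18, edgeR adjusted p = 1.8e-06) and over the whole period (-2.52 ± 0.18, edgeR adjusted p = 3.4e-08). With DESeq2 size factors the first of these was -0.95 and under the limit.

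FERONIA contig 5743 had 24.9, 13.4 and 15.4 RPKM in H6, 14.8, 14.3 and 16.6 in H9, 5.85, 5.5 and 8.58 in H15, and 5.24, 3.17 and 4.62 in H20. Replicate 1 of H6 stood above the other libraries, and H6 and H9 overlapped. The contig fell from H6 to H20 (-1.94 ± 0.26, edgeR adjusted p = 1e-05), and its fall from H9 to H15 (-1.06 ± 0.25, edgeR adjusted p = 0.0018) was -0.97 without replicate 3 of H9, -0.97 without replicate 1 of H15 and -0.95 without replicate 2 of H15, each under the limit.

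The HERK1 contigs moved apart. HERK1 contig 4382 had 17.4, 16.4 and 23.9 RPKM in H6, 14.8, 16.7 and 16.9 in H9, 11.6, 12.7 and 10 in H15, and 4.07, 4.45 and 5.08 in H20. Its H6 and H9 libraries overlapped, and every H20 library was below all others. It fell from H6 to H20 (-1.99 ± 0.17, edgeR adjusted p = 1.6e-07), and of the steps only the last was called (-1.37 ± 0.17, edgeR adjusted p = 4.9e-05). HERK1 contig 14479 had 6.97, 7.09 and 7.61 RPKM in H6, 17.6, 17.98 and 18.02 in H9, 22.3, 24.1 and 22.5 in H15, and 15.4, 16.1 and 18.01 in H20. All of its H6 libraries were below those of the other time points, and the replicates lay close together. It rose from H6 to H9 (1.29 ± 0.10, edgeR adjusted p = 4.6e-07) and from H6 to H20 (1.29 ± 0.10, edgeR adjusted p = 9.3e-08).

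Proteins bound to the wall through extensin-like, proline-rich or pectin-binding domains made up a group of 4. From H6 to H20, 2 rose and 1 fell, beside 34.2% and 37.4% of all contigs. LRX2 is an LRR-extensin, a wall protein that binds RALF peptides and acts in root hairs and other growing cells of Arabidopsis. The LRX2 contig had 23.4, 17.2 and 15.1 RPKM in H6, 10.4, 9.58 and 16.02 in H9, 28.3, 32.2 and 34.2 in H15, and 48.9, 50.2 and 54.5 in H20. The H6 and H9 libraries overlapped, those of H15 were above both, and those of H20 were above all. LRX2 rose from H9 to H15 (1.53 ± 0.21, edgeR adjusted p = 2.4e-05) and from H6 to H20 (1.57 ± 0.21, edgeR adjusted p = 9.7e-06).

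WAK5 belongs to the wall-associated kinases, which bind pectin. Its contig had 14.6, 11.5 and 15.9 RPKM in H6, 14.8, 18.03 and 15.3 in H9, 5.27, 4.63 and 8.31 in H15, and 3.57, 3.45 and 3.14 in H20. H6 and H9 overlapped, and the H20 libraries were below every other. WAK5 fell from H6 to H20 (-1.95 ± 0.21, edgeR adjusted p = 1.6e-06) and from H9 to H15 (-1.26 ± 0.21, edgeR adjusted p = 9.8e-05). The related WAKL20 contig had 1.9, 2.3 and 4.16 RPKM in H6, 1.13, 2.1 and 2.26 in H9, 10.7, 13.3 and 12.8 in H15, and 3.54, 5.06 and 4.76 in H20, and was the lowest of the set by its highest mean (12.3 RPKM). Its H15 libraries stood apart above all others. WAKL20 rose from H9 to H15 (2.89 ± 0.31, edgeR adjusted p = 3.5e-06), fell from H15 to H20 (-1.499 ± 0.29, edgeR adjusted p = 0.0014), and its H6 and H20 libraries overlapped. The proline-rich kinase PERK8 rose from H6 to H20 (1.103 ± 0.13, edgeR adjusted p = 2.4e-06), for which limma on log2(RPKM + 1) gave 0.95, under the limit.

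LRR kinases formed the largest group, with 12 contigs, of which 8 rose and 3 fell from H6 to H20, beside 34.2% and 37.4% of all contigs. From H9 to H15, 5 of the 12 rose and 0 fell, beside 22.7% and 20.8% of all contigs. Another 6 passed the edgeR test at an adjusted p under 0.05 but not the fold limit, beside 1309 of the 3622. These 6 went in both directions. AT2G01210 (0.75 ± 0.12), AT3G56370 (0.88 ± 0.15) and AT5G58300 (0.68 ± 0.11) were higher in H15. Lower in H15 were AT1G56145 contig 3019 (-0.70 ± 0.15), contig 111 (-0.70 ± 0.20) and contig 164 (-0.54 ± 0.11). RKL1, an LRR kinase of the plasma membrane, was the most abundant. It had 34.4, 38.2 and 35.8 RPKM in H6, 60.4, 49.1 and 65.1 in H9, 105, 134 and 114 in H15, and 123, 116 and 116 in H20. H15 and H20 overlapped and were above H6 and H9. RKL1 rose from H9 to H15 (1.16 ± 0.13, edgeR adjusted p = 5.9e-06) and from H6 to H20 (1.81 ± 0.14, edgeR adjusted p = 5.4e-08).

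The LRR kinase AT2G45340 was the only contig of the set called higher in H20 than in H15. It had 7.53, 7.63 and 9.42 RPKM in H6, 7.77, 6.88 and 8.3 in H9, 21.99, 22.8 and 22.9 in H15, and 55.8, 49.4 and 51.8 in H20. H6 and H9 overlapped, H15 was above them and H20 above H15, with no overlap. AT2G45340 rose from H9 to H15 (1.700 ± 0.13, edgeR adjusted p = 1.9e-07), from H15 to H20 (1.19 ± 0.12, edgeR adjusted p = 1.2e-05) and over the whole period (2.77 ± 0.13, edgeR adjusted p = 1.5e-09). A rise in both of the last steps, with no call in either direction in the first, was found for 13 contigs of the table (0.359%).

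AT5G58300 and AT1G67510 are LRR kinases whose hemp contigs rose over the period. The contig of AT5G58300 had 29, 32.5 and 32.9 RPKM in H6, 66.7, 55.1 and 68.3 in H9, 93.4, 95.9 and 86.98 in H15, and 86.6, 89.2 and 85.7 in H20. Its H6 libraries were below all others, and its H15 and H20 libraries overlapped. AT5G58300 rose from H6 to H20 (1.57 ± 0.11, edgeR adjusted p = 3.3e-08), and its difference between H9 and H6 (0.998 ± 0.11, edgeR adjusted p = 5.4e-06) was just under the limit. AT1G67510 had 9.74, 9.62 and 8.55 RPKM in H6, 17.5, 15.3 and 21.6 in H9, 33.5, 34 and 34.3 in H15, and 27.9, 30.4 and 27.1 in H20. No time points overlapped. It rose from H6 to H20 (1.71 ± 0.14, edgeR adjusted p = 8.7e-08) and from H9 to H15 (1.04 ± 0.13, edgeR adjusted p = 1.3e-05), the latter at 0.92 without replicate 2 of H9.

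Contig 111, an LRR receptor-like kinase without a locus, fell the most in this group. It had 22.2, 25.2 and 28.2 RPKM in H6, 24.99, 20.4 and 17.99 in H9, 15.1, 10.4 and 10.1 in H15, and 3.02, 2.06 and 3.57 in H20. H6 and H9 overlapped, and the H20 libraries were far below the rest. The contig fell from H6 to H20 (-3.02 ± 0.23, edgeR adjusted p = 5.1e-08), and of the steps only that from H15 to H20 was called (-2.05 ± 0.22, edgeR adjusted p = 1.8e-05).

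A pair of contigs of the group shared the match AT1G56145 and moved in opposite directions. Contig 3019 had 16.1, 16.2 and 13.5 RPKM in H6, 10.8, 11.5 and 10.6 in H9, 5.55, 5.32 and 7.52 in H15, and 3.03, 2.91 and 3.59 in H20. Each time point was below the one before it, with no overlap. This contig fell from H6 to H20 (-2.16 ± 0.16, edgeR adjusted p = 5.4e-08) with no step past the limit. Contig 17633 had 1.03, 0.72 and 1.01 RPKM in H6, 4.43, 4.59 and 7.83 in H9, 13.2, 16.6 and 18.4 in H15, and 6.22, 11.2 and 13.3 in H20. Its H6 libraries held 19 to 29 reads, and the H15 and H20 libraries overlapped. It rose from H6 to H9 (2.598 ± 0.35, edgeR adjusted p = 2.6e-05), from H9 to H15 (1.65 ± 0.29, edgeR adjusted p = 0.0002) and from H6 to H20 (3.57 ± 0.35, edgeR adjusted p = 5.6e-07).

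The other LRR kinases lay between -1.01 and 1.42 for H20 against H6. AT2G01210 rose from H6 to H20 by 1.42 ± 0.12 (edgeR adjusted p = 1.8e-07), AT3G56370 by 1.13 ± 0.15 (edgeR adjusted p = 7.7e-06) and IMK2, an LRR protein of Arabidopsis inflorescence meristems that its description calls probably inactive as a kinase, by 1.08 ± 0.16 (edgeR adjusted p = 2.1e-05). IMK2 was lowest in H9 (6.16 to 9.19 RPKM) and rose from H9 to H15 (1.98 ± 0.16, edgeR adjusted p = 3.8e-07). Its rise from H6 was 0.95 without replicate 3 of H6. AT5G14210 fell from H6 to H20 (-1.01 ± 0.13, edgeR adjusted p = 8.6e-06), a call lost without replicate 3 of H6 (-0.86), without replicate 2 of H20 (-0.98) and with DESeq2 size factors (-0.72). Contig 164 (-0.75 ± 0.11, edgeR adjusted p = 2.9e-05) was not called.

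Kinases with cysteine-rich or lectin domains are known mostly from defense and stress responses. They were grouped here with AT3G22060, whose description names only a relation to receptor-like kinases. All 3 contigs of this group had their highest mean in H9 and fell from H9 to H15, beside 20.8% of all contigs. From H6 to H9 only AT3G22060 was called higher. In that step CRK3 stood at 0.43 ± 0.25 (edgeR adjusted p = 0.14) and AT3G55550 at 0.75 ± 0.16 (edgeR adjusted p = 0.00092). CRK3, a cysteine-rich receptor-like kinase, had 41.2, 39.6 and 37.2 RPKM in H6, 43.9, 66.9 and 49.2 in H9, 12.3, 7.36 and 18.9 in H15, and 2.52, 2.51 and 3.02 in H20. H6 was below H9, H15 was below both and variable between replicates, and H20 was below all. CRK3 fell from H9 to H15 (-1.92 ± 0.26, edgeR adjusted p = 2.4e-05), from H15 to H20 (-2.28 ± 0.29, edgeR adjusted p = 6.7e-05) and from H6 to H20 (-3.77 ± 0.30, edgeR adjusted p = 8.2e-08), the largest fall of the set.

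AT3G22060 had 10.4, 3.99 and 5.88 RPKM in H6, 28.8, 16.01 and 38.8 in H9, 8.79, 7.17 and 10.4 in H15, and 10.9, 14.5 and 14.4 in H20. Replicates spread widely in H6 and H9, and no library of H9 was as low as the highest of H6. It rose from H6 to H9 (2.04 ± 0.36, edgeR adjusted p = 0.00024) and fell from H9 to H15 (-1.54 ± 0.35, edgeR adjusted p = 0.0013). The difference between H20 and H6 (1.07 ± 0.36, edgeR adjusted p = 0.012) was called, but it was 0.80 with adjusted p = 0.055 in the edgeR fit without replicate 2 of H6, and 0.98 without replicate 3 of H6. AT3G55550, a kinase with a concanavalin A-like lectin domain, had 13.7, 11.9 and 10.7 RPKM in H6, 20.9, 19.2 and 21.1 in H9, 4.85, 4.5 and 6.41 in H15, and 6.44, 4.93 and 5.55 in H20. The H9 libraries were above all others, and H15 and H20 overlapped. AT3G55550 fell from H9 to H15 (-1.82 ± 0.16, edgeR adjusted p = 8e-07), while H20 against H6 (-0.995 ± 0.16, edgeR adjusted p = 5.7e-05) was just short of a call.

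Among 11 other receptor-like kinases, for which the description names no domain outside the cell, 6 rose and 2 fell from H6 to H20. Over all contigs 34.2% rose and 37.4% fell. AT5G18500 had the highest level of the set. It had 32.6, 38.1 and 32.9 RPKM in H6, 99.8, 87.1 and 96.97 in H9, 233, 241 and 198 in H15, and 214, 232 and 216 in H20. H15 and H20 overlapped, and H9 lay between them and H6. AT5G18500 rose from H6 to H9 (1.44 ± 0.11, edgeR adjusted p = 4.4e-07), from H9 to H15 (1.38 ± 0.11, edgeR adjusted p = 4.2e-07) and from H6 to H20 (2.77 ± 0.12, edgeR adjusted p = 8.4e-10). AT2G18890 had 13.6, 14.9 and 11.6 RPKM in H6, 18.3, 14.6 and 13.2 in H9, 57.8, 59.9 and 57.05 in H15, and 71.6, 57.9 and 62.8 in H20. Its libraries fell into a low pair of time points, H6 and H9, and a high pair, H15 and H20. AT2G18890 rose from H9 to H15 (2.07 ± 0.14, edgeR adjusted p = 1.1e-07) and from H6 to H20 (2.37 ± 0.14, edgeR adjusted p = 8.8e-09).

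The contig described as receptor kinase-like protein (contig 10837) had 7.25, 7.87 and 7.32 RPKM in H6, 7.46, 6.89 and 7.24 in H9, 18.98, 19.5 and 17.8 in H15, and 25.8, 27.3 and 26.4 in H20. It followed a like course, with H20 above H15 and replicates close together. It rose from H9 to H15 (1.52 ± 0.10, edgeR adjusted p = 8.7e-08) and from H6 to H20 (1.92 ± 0.10, edgeR adjusted p = 3.3e-09). AT5G20050 moved the other way and had 18.3, 16.03 and 18.9 RPKM in H6, 15.1, 12.8 and 11.6 in H9, 3.77, 4.15 and 4.77 in H15, and 3.44, 4.18 and 4.18 in H20. H9 was below H6, and H15 and H20 overlapped far below both. AT5G20050 fell from H9 to H15 (-1.49 ± 0.15, edgeR adjusted p = 2.2e-06) and from H6 to H20 (-2.08 ± 0.16, edgeR adjusted p = 5.4e-08). Contig 7399, described as receptor-like protein kinase, had 21.8, 19.6 and 19.1 RPKM in H6, 20.3, 20.8 and 19.4 in H9, 16.1, 15.5 and 12.6 in H15, and 9.28, 8.41 and 9.86 in H20. H6 and H9 overlapped, and the H20 libraries were the lowest. Its fall from H6 to H20 (-1.03 ± 0.13, edgeR adjusted p = 4.2e-06) was just past the limit and was -0.97 without replicate 1 of H6, -0.97 without replicate 2 of H20 and -0.74 with DESeq2 size factors.

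Another 3 contigs shared the match of an unnamed putative receptor kinase. Contig 17886 rose the most of the set and had 0.87, 2.51 and 1.1 RPKM in H6, 8.39, 8.37 and 9.55 in H9, 33.3, 30.9 and 30.7 in H15, and 28.7, 23.1 and 31.1 in H20. Its H6 libraries held 11 to 36 reads, and H15 and H20 overlapped. It rose from H6 to H9 (2.53 ± 0.28, edgeR adjusted p = 5.7e-06), from H9 to H15 (1.99 ± 0.23, edgeR adjusted p = 6.7e-06) and from H6 to H20 (4.298 ± 0.28, edgeR adjusted p = 1.7e-08). Contig 6404 had 13.8, 14.3 and 17.6 RPKM in H6, 33.1, 43.5 and 30.9 in H9, 33.9, 30.1 and 36.5 in H15, and 11.2, 7.59 and 10.1 in H20. H9 and H15 overlapped and were above H6 and H20. It rose from H6 to H9 (1.21 ± 0.18, edgeR adjusted p = 5.8e-05) and fell from H15 to H20 (-1.81 ± 0.18, edgeR adjusted p = 1.1e-05), and the difference of H20 from H6 (-0.56 ± 0.18, edgeR adjusted p = 0.011) was not called. Contig 19428, of only 380 bases, had 4.12 to 11.2 RPKM in H6 and 13.1 to 18.8 RPKM in H9. Its rise in that step (1.07 ± 0.32, edgeR adjusted p = 0.009) was 0.80 without replicate 1 of H6, 0.98 without replicate 2 of H6 and 0.93 without replicate 2 of H9.

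The remaining contigs of the group were AT5G54590, AT5G56460 and contig 14225. AT5G54590, a calcium/calmodulin-regulated kinase by its description, rose from H6 to H20 by 1.21 ± 0.12 (edgeR adjusted p = 4.5e-07) and contig 14225 by 1.02 ± 0.14 (edgeR adjusted p = 9.3e-06). Without TMM factors the value of contig 14225 was 0.92, under the limit. AT5G56460 (-0.88 ± 0.16, edgeR adjusted p = 0.00016) was not called.

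LRR proteins with no kinase named were 5 contigs, of which 3 rose and 2 fell, in each case both from H6 to H20 and from H9 to H15. Of all contigs, 34.2% rose and 37.4% fell in the former comparison, and 22.7% and 20.8% in the latter. AT3G20820 was the most abundant of the set in H6. It had 163, 149 and 183 RPKM in H6, 109, 84.4 and 98.8 in H9, 17.7, 17.9 and 18.6 in H15, and 21.5, 19.6 and 25.03 in H20. No library of H9 reached H6, and H15 and H20 were lower again. AT3G20820 fell from H9 to H15 (-2.29 ± 0.13, edgeR adjusted p = 4e-08) and from H6 to H20 (-2.81 ± 0.14, edgeR adjusted p = 1.9e-09). AT1G15740 had 84.1, 77.4 and 74.3 RPKM in H6, 56.97, 75.4 and 67.5 in H9, 28.8, 26.8 and 33.5 in H15, and 15.9, 15.04 and 16.1 in H20. H6 and H9 overlapped, then H15 and H20 followed with no overlap. AT1G15740 fell from H6 to H20 (-2.22 ± 0.13, edgeR adjusted p = 6.1e-09). Its fall from H9 to H15 (-1.03 ± 0.12, edgeR adjusted p = 7.5e-06) was -0.94 without replicate 2 of H9, -0.99 without replicate 3 of H9, -0.99 without replicate 1 of H15 and -0.97 without replicate 2 of H15.

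AT5G23400 had 17.6, 16.6 and 13.6 RPKM in H6, 27.8, 22.1 and 30.3 in H9, 50.8, 48.9 and 46.4 in H15, and 52.01, 49.6 and 55.8 in H20. H6 was the lowest, H9 lay between, and H15 and H20 overlapped. AT5G23400 rose from H6 to H20 (1.82 ± 0.14, edgeR adjusted p = 6.5e-08). Its rise from H9 to H15 (1.003 ± 0.14, edgeR adjusted p = 2.3e-05) stood at the limit, and was 0.87 without replicate 2 of H9 and 0.98 without replicate 1 or replicate 2 of H15. Contig 15200, a putative LRR disease resistance protein, had 18.6, 18.6 and 19.2 RPKM in H6, 25.2, 19.7 and 24.2 in H9, 50.3, 57.2 and 41.8 in H15, and 47.6, 64.5 and 60.8 in H20. H15 and H20 overlapped above H6 and H9. It rose from H9 to H15 (1.26 ± 0.15, edgeR adjusted p = 9.6e-06) and from H6 to H20 (1.72 ± 0.16, edgeR adjusted p = 2.9e-07). Contig 5607 rose in the same comparisons, by 1.37 ± 0.16 (edgeR adjusted p = 7.4e-06) from H9 to H15 and 1.29 ± 0.16 (edgeR adjusted p = 5.9e-06) from H6 to H20.

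**Figure D3:**
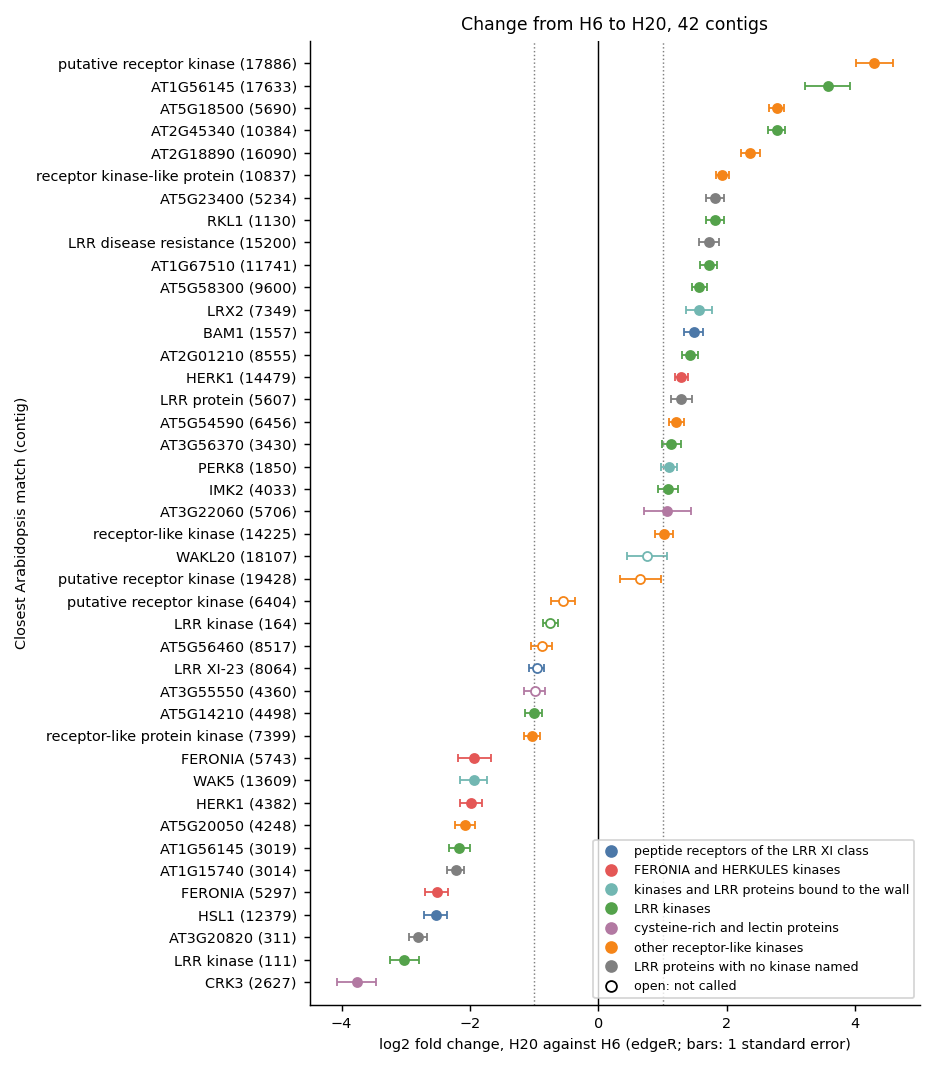
Log2 fold change of H20 against H6 for each of the 42 contigs from edgeR, ordered by size, with bars of 1 standard error and colors for the roles. Filled points were called and dotted lines mark the limit of 1. Values run from -3.77 for CRK3 to 4.298 for putative receptor kinase contig 17886, and the 7 open points were not called.

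Contigs that share a closest Arabidopsis match could be fragments or alleles of a gene, or hemp paralogs, which was not tested. Reads of a gene could be divided between them, and reads that fit several contigs were not counted, so that the level of each is uncertain. Lengths were 3017 and 2952 bases for FERONIA, 3092 and 3285 for HERK1, and 2012 and 1734 for AT1G56145. Those of the putative receptor kinase were 868, 939 and 380 bases. The difference in log2 RPKM between such contigs does not depend on how libraries were scaled. Whether it varied between time points was tested for all 6 pairs with an exact permutation test. The test ran over the 15400 ways to divide the 12 libraries into 4 groups of 3, with Benjamini-Hochberg adjustment over the pairs. The contigs came from a table selected for differences between these time points, and some pairs had already been called in opposite directions. A small p was therefore likely beforehand and is no support apart from those calls. Pairs of the putative receptor kinase also share contigs. For HERK1, contig 4382 minus contig 14479 was 1.39 ± 0.23 (SD, n = 3) in H6, -0.15 ± 0.09 at H9, -1.01 ± 0.14 at H15 and -1.87 ± 0.05 at H20. Contig 4382 was the more abundant in 3 of 3 libraries of H6 and the less abundant in all 9 later libraries, and the difference varied between time points (exact permutation p = 6.5e-05, the smallest this test can give, adjusted p = 1.3e-04).

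For AT1G56145 the difference of contig 3019 minus contig 17633 was 4.07 ± 0.39 (SD, n = 3) in H6, 1.02 ± 0.50 at H9, -1.40 ± 0.21 at H15 and -1.62 ± 0.51 at H20 (exact permutation p = 2.6e-04, adjusted p = 3.9e-04). These contigs matched different protein entries of the same locus. FERONIA contig 5297 minus contig 5743 gave 0.26 ± 0.53 in H6, -0.74 ± 0.21 at H9, -1.42 ± 0.21 at H15 and -0.35 ± 0.20 at H20 (exact permutation p = 7.1e-04, adjusted p = 8.6e-04, n = 3). Both FERONIA contigs were nonetheless called lower in H20 than in H6.

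Of the contigs of the putative receptor kinase, 6404 minus 17886 went from 3.502 ± 0.86 (SD, n = 3) in H6 to 2.02 ± 0.34 at H9, 0.08 ± 0.15 at H15 and -1.53 ± 0.15 at H20 (exact permutation p = 6.5e-05, adjusted p = 1.3e-04). Contig 17886 minus contig 19428 went from -2.32 ± 0.98 in H6 to -0.82 ± 0.35 at H9, 0.82 ± 0.27 at H15 and 1.37 ± 0.29 at H20, with the same p. Contigs 6404 and 19428 were closer in course, with differences of 1.18 ± 0.54, 1.20 ± 0.05, 0.90 ± 0.42 and -0.15 ± 0.44 (exact permutation p = 0.015, adjusted p = 0.015, n = 3).

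**Figure D4:**
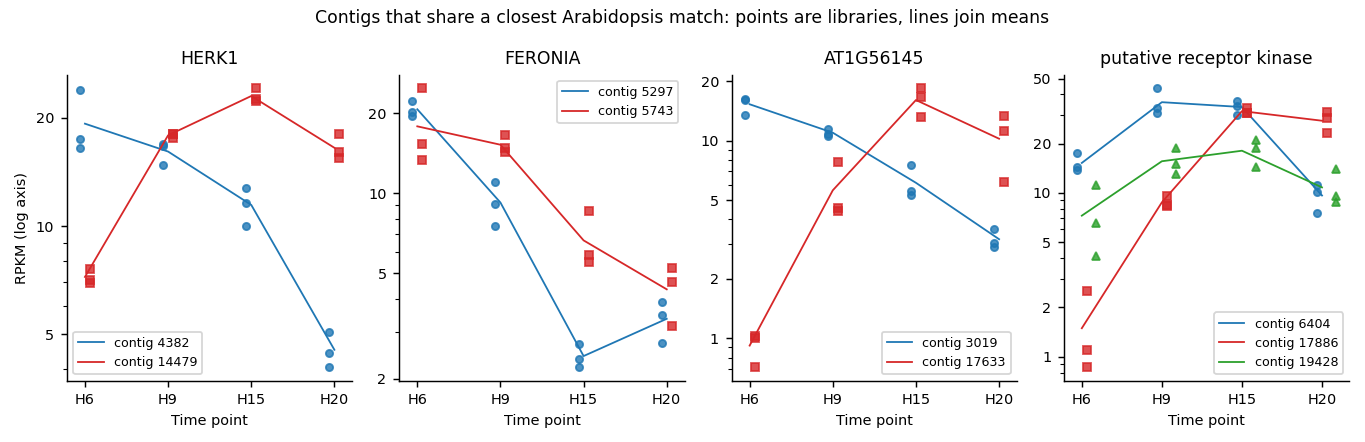
RPKM (log axis) of contigs that share a closest Arabidopsis match, by time point. Points are the 3 libraries of each time point and lines join the means. HERK1 and AT1G56145 contigs cross, with contig 4382 falling from a mean of 19.2 to 4.53 RPKM while contig 14479 goes from 7.22 to 16.5 RPKM.

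Ligands and partners of receptor kinases were looked up from lists. Of 22 genes for peptide ligands, 2 were in the table, both for precursors of phytosulfokine, a sulfated peptide that promotes cell growth and is perceived by LRR kinases. PSK2 had 1.7, 2.47 and 1.86 RPKM in H6, 18.5, 13.5 and 9.27 in H9, 55.96, 51.7 and 44.9 in H15, and 56.9, 36.3 and 42.01 in H20. Its H6 libraries were far below the rest. PSK2 rose from H6 to H9 (2.75 ± 0.28, edgeR adjusted p = 2.6e-06), from H9 to H15 (2.03 ± 0.23, edgeR adjusted p = 5.7e-06) and from H6 to H20 (4.58 ± 0.28, edgeR adjusted p = 1e-08). PSK3 had 21.01, 27.1 and 24.7 RPKM in H6, 48.3, 35.8 and 25.6 in H9, 102, 113 and 71.2 in H15, and 133, 154 and 137 in H20. The H20 libraries were above all others. PSK3 rose from H9 to H15 (1.53 ± 0.22, edgeR adjusted p = 3e-05) and from H6 to H20 (2.64 ± 0.23, edgeR adjusted p = 1.6e-07). Over all contigs 17.9% were called higher from H6 to H9, 22.7% from H9 to H15 and 34.2% from H6 to H20.

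Of 21 genes of brassinosteroid signaling below the receptor, the table held 1, the receptor-associated kinase BSK5, which fell from H6 to H20 (-1.35 ± 0.15, edgeR adjusted p = 1.4e-06) and from H9 to H15 (-1.08 ± 0.14, edgeR adjusted p = 1.8e-05). Of 19 cytoplasmic kinases, MAP kinases and outputs, 2 were found, the small GTPases ROP2 and ROP6, which act below FERONIA and other receptors in Arabidopsis. Both rose from H6 to H20, ROP2 (2.02 ± 0.20, edgeR adjusted p = 6.3e-07) from a mean of 28.9 to 109 RPKM and ROP6 (1.84 ± 0.17, edgeR adjusted p = 2.4e-07) from 11.3 to 37.8 RPKM. Both also rose from H6 to H9. Of all contigs, 34.2% were called higher from H6 to H20 and 17.9% from H6 to H9. A list of 20 further receptor-like proteins, matched by symbol or locus and so without the FERONIA contigs, which carry neither, added the LysM protein LYM1, which rose from H6 to H20 (1.23 ± 0.17, edgeR adjusted p = 1.6e-05), to HERK1 and WAK5 already given.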

How the data were processed

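RNA-Seq was performed on 12 libraries, 3 pools of 20 hypocotyls for each of H6, H9, H15 and H20, and groups follow the labels. The authors used the CLC Genomics Workbench to trim reads, drop duplicates, build a de novo assembly and map every library to its contigs. The deposited count values are reads with a unique position per contig, and the deposited RPKM scale these to contig length and mapped reads. Whether strand was used in counting is not given in the sources used here. The authors kept contigs by ANOVA, fold change and RPKM difference, and their FDR and mean columns were not used.

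Counts of all 3622 contigs were fitted with edgeR 4.0.16 (R 4.3.3, quasi-likelihood F test, 8 residual degrees of freedom, TMM factors, library sizes implied by counts, lengths and RPKM), with Benjamini-Hochberg adjustment over the table and calls at adjusted p under 0.05 and log2 fold change over 1. filterByExpr removed 0 contigs. The fit and the permutation test were tested on simulated data. In the simulated counts few contigs changed, up and down alike, so that the scaling of a table of mostly changed contigs was not tested. Alternatives used DESeq2 1.42.0, limma 3.58.1 on log2(RPKM + 1), other factors, filters and left-out libraries.

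The members and gene lists were chosen with earlier results of these data known. Values of every library are given for 30 contigs: the 12 largest rises and 12 largest falls from H6 to H20 and the 3 largest of each step, among called contigs whose time points did not overlap, and the highest contig of each role. The other 12 are given by range or fold change. Contigs were not placed on a genome, and no sequence is given.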

Additional observations from a re-analysis of the deposited data

How the results depend on the processing

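Of 1575 values of called contigs recomputed under the alternatives, 1527 kept their direction and call, 48 kept the direction but lost the call, and 0 reversed. Some alternatives could hardly change a call, such as the fit with no filter, which equals the main fit, and fits without a library outside the comparison. The 48 belong to 13 of 75 calls, all of them near the log2 limit of 1. With no fold limit, 16 contigs were higher and 8 lower from H6 to H9, 22 and 16 from H9 to H15, and 4 and 14 from H15 to H20. In these steps 74.7%, 79.6% and 41.4% of the table passed the adjusted p in either direction. With DESeq2 size factors 1 contig was lower from H6 to H9. Leaving out each library in turn gave 21 to 22 contigs higher and 11 to 14 lower from H6 to H20, 6 to 8 and 2 to 2 from H6 to H9, 13 to 17 and 7 to 10 from H9 to H15, and 1 to 1 and 5 to 7 from H15 to H20. DESeq2 size factors moved the median contig of the table by 0.29 from H6 to H20 and by 0.23 from H6 to H9, a fit on the 6 libraries compared by 0.25 from H6 to H20, upper-quartile factors by 0.11 in both, and leaving out TMM factors by -0.10 from H6 to H20 and -0.14 from H9 to H15, while limma on log2(RPKM + 1) moved the last by -0.13. With the replicate number as a block, 22 contigs were higher and 14 lower from H6 to H20, 7 and 2 from H6 to H9, 15 and 10 from H9 to H15, and 1 and 5 from H15 to H20. Deviations of libraries with the same number had a median correlation of 0.04 (-0.26 to 0.24 over 18 pairs, 3 above 0.1). For libraries with other numbers the median was -0.02 (-0.28 to 0.30 over 36 pairs, 7 above 0.1). The labels give the number no meaning beyond the replicate, and whether libraries of a number shared a step of handling was not tested. Depth limits contigs such as 17886, with 11 reads in a library of H6.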
